A study of Mus musculus with 22 samples.

Results

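The Hox genes are a family of homeobox transcription factor genes that lie in 4 clusters in the mouse genome. Of the 55367 gene symbols in the deposited table, 38 Hox genes were taken by their symbols, and all 38 had a row. The list was chosen with earlier results of these data known. On the GRCm38 assembly, cluster A spanned chromosome 6, 52162417 to 52260880, and held 10 of the genes. Cluster B spanned chromosome 11, 96194316 to 96368256, and held 10. Cluster C spanned chromosome 15, 102921103 to 103036852, and held 9, and cluster D spanned chromosome 2, 74668310 to 74765142, and held 9. By paralog number, which gives a gene's place in its cluster, 7 of the genes were anterior (paralogs 1 to 3), 15 were central (4 to 8) and 16 were posterior (9 to 13).

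The study asked how EZH2, the catalytic subunit of Polycomb repressive complex 2 (PRC2), bears on the primitive endoderm fate of mouse embryonic stem cells (ESCs). RNA was sequenced in 22 libraries of 10 groups, with 3 libraries each for Ezh2-null cells in serum and LIF (SL) and for the E14 wild-type ESCs set against them, and 2 for every other group. The first set came from a single Ezh2 knockout clone, numbered 10, of the E14 line, so the knockout was measured in 1 clone, without Ezh2 and with Ezh2 put back. It held the rescued counterpart of this clone, with Ezh2 put back, in SL, the Ezh2-null cells in serum, 2i and LIF (S2iL), the Ezh2-null cells in SL, and wild-type E14 ESCs in medium with LIF. The second set was labelled as wild-type E14 throughout. It held TG2A.NG.PB cells (TG2A below) in S2iL, the primitive endoderm stem cell (PrESC) lines EPZ-iPrE2 and EPZ-iPrE1, which had been induced from wild-type ESCs with EPZ-6438, an inhibitor of the EZH2 enzyme, and were kept in PrESC culture, and TG2A ESCs in medium with LIF. The third set held wild-type PrESCs of the C57 line in PrESC culture and wild-type C57 ESCs in medium with LIF. No source used here says which of the wild-type E14 ESC stocks the knockout clone was made from, or whether the inhibitor was present when RNA was taken.

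Hox genes are used during embryonic development to set the identity of body regions along the head-to-tail axis, in an order that follows their order along each cluster. In ESCs the clusters carry the histone mark H3K27me3, which PRC2 places, and are kept at low levels. PRC2 in mammals is found at CpG-rich promoters. 2i is a pair of kinase inhibitors that holds ESCs in a naive state. Primitive endoderm is the extraembryonic lineage of the blastocyst that forms the endoderm of the yolk sac.

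The promoters of 4 genes on which the results turn are shown with their CG pairs, since PRC2 is known for binding CpG-rich DNA. The 250 bases before the most upstream RefSeq start on GRCm38.p6 are printed 5′ to 3′ on the gene's strand, with each CG dinucleotide in capitals. Hoxa10, Hoxa11 and Hoxd13 stood high in Ezh2-null cells, and Hoxb4 stood high in all 3 primitive endoderm lines. Hoxa10 lies at chr6:52240855-52241104 on the minus strand and held 7 CG pairs, Hoxa11 lies at chr6:52245811-52246060 on the minus strand and held 13, Hoxd13 lies at chr2:74667975-74668224 on the plus strand and held 31, and Hoxb4 lies at chr11:96318017-96318266 on the plus strand and held 14.
Hoxa10: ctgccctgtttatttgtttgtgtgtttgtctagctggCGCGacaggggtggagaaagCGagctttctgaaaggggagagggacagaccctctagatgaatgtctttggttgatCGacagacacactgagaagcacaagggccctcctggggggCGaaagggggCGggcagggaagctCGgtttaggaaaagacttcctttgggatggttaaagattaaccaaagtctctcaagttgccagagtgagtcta
Hoxa11: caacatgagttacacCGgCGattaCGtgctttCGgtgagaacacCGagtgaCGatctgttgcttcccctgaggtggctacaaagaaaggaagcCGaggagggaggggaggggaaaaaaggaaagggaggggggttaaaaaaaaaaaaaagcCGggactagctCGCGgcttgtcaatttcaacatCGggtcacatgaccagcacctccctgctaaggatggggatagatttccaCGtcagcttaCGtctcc
Hoxd13: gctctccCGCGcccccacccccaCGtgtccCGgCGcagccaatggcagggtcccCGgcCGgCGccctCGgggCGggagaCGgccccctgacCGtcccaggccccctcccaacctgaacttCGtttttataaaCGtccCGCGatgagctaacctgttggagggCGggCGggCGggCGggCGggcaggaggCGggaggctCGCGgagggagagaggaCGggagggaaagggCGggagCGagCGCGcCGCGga
Hoxb4: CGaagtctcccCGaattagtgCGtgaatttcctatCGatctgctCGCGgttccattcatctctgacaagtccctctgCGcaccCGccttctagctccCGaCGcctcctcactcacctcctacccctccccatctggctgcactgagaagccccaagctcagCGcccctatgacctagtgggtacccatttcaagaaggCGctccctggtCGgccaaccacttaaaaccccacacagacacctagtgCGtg
RefSeq windows of 300 bases (250 before the start and 50 after it) were found for 22 of the 38 genes, in 24 windows. They held a median of 14.5 CG pairs, between 4 (Hoxa9, Hoxd4 and 1 of the windows of Hoxd11) and 45 (Hoxa13), against a median of 7 over all 32851 windows of the table. Their median GC content was 57.7%, against 52.7% over all windows. The letters TATAAA, searched on both strands, stood in 4 of the 24 windows (16.7%), and in 13.6% of all windows. The windows at the printed starts were not all rich in CG pairs. Of all windows, 60.4% held fewer than that of Hoxa10, 65.4% fewer than that of Hoxa11, 63.7% fewer than that of Hoxb4 and 94.4% fewer than that of Hoxd13. Hoxa10 had another window, at a downstream start that is not printed, with 21 CG pairs and TATAAA. Of all windows 75.2% held fewer than this one, so the figure for Hoxa10 depends on the start taken. These counts are descriptions of the sequence and were not tested against the expression values.

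Each library held 13586043 to 26280949 counts, and 3 counts corresponded to 0.114 to 0.221 CPM of these totals (levels below are CPM, counts scaled to the library, with library sizes adjusted by the trimmed mean of M-values). Ezh2 had 2, 1 and 1 counts in the 3 Ezh2-null SL libraries and 6 and 0 in the Ezh2-null S2iL libraries, 495 to 533 CPM in the rescued cells and 118 to 239 CPM in all wild-type groups, so that the labels and the gene went together. The primitive endoderm label held against 12 markers of that lineage. Of these, 11 were higher in EPZ-iPrE2 than in TG2A ESCs and none lower, and 11 were higher in EPZ-iPrE1 and 1 lower. In C57 PrESCs 12 were higher than in C57 ESCs. Of all genes, 28.8%, 27.9% and 27.3% were called higher in these lines, in that order. At the same time 9, 9 and 8 of 10 pluripotency genes were lower, where 33.4%, 32.2% and 33.4% of all genes were. In the summed level of 15 fibroblast markers 4 libraries stood apart, with 2455 CPM in C57 PrESC replicate 2, 403 CPM in C57 ESC replicate 2, 329 CPM in EPZ-iPrE2 replicate 2 and 205 CPM in EPZ-iPrE1 replicate 1, while the other libraries held 30.0 to 131 CPM. The table was tested as a whole, on 17547 genes that passed a filter on low counts, and 32 of the 38 Hox genes were among them. Hoxa6, Hoxb1, Hoxb5, Hoxb6, Hoxd3 and Hoxd12 did not pass. A gene was called changed where the Benjamini-Hochberg adjusted p of edgeR's quasi-likelihood test was below 0.05. The labels do not say that replicates came from separate cultures, so the p-values measure the spread between these libraries, which may be technical. This spread was estimated in 1 fit of all 22 libraries, so groups outside a comparison also bear on its calls. In bulk RNA, more cells that use a gene and more RNA in each cell cannot be told apart.

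Summed over all 38 genes, Hox RNA was scarce in the rescued cells and in every wild-type ESC group without 2i, and was highest in Ezh2-null cells. The sum was 9.95 ± 2.40 CPM in rescued cells (SD, n = 2), 112 ± 1.88 CPM in Ezh2-null S2iL cells (n = 2), 133.5 ± 4.91 CPM in Ezh2-null SL cells (n = 3) and 11.3 ± 0.794 CPM in E14 ESCs (n = 3). In the second set it was 39.6 ± 1.74 CPM in TG2A S2iL cells, 59.5 ± 1.14 CPM in EPZ-iPrE2, 81.8 ± 16.2 CPM in EPZ-iPrE1 and 15.5 ± 6.10 CPM in TG2A ESCs (n = 2 each). C57 PrESCs held 32.9 ± 12.7 CPM and C57 ESCs 11.1 ± 3.16 CPM (n = 2 each). The 4 lowest groups, which were the rescued cells, C57 ESCs, E14 ESCs and TG2A ESCs, overlapped in a chain and did not differ beyond their spread. In order above them stood C57 PrESCs, TG2A S2iL cells, EPZ-iPrE2, EPZ-iPrE1, Ezh2-null S2iL cells and Ezh2-null SL cells. C57 PrESCs and TG2A S2iL cells overlapped, and each later neighbour's libraries lay above those before it.

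**Figure D1:**
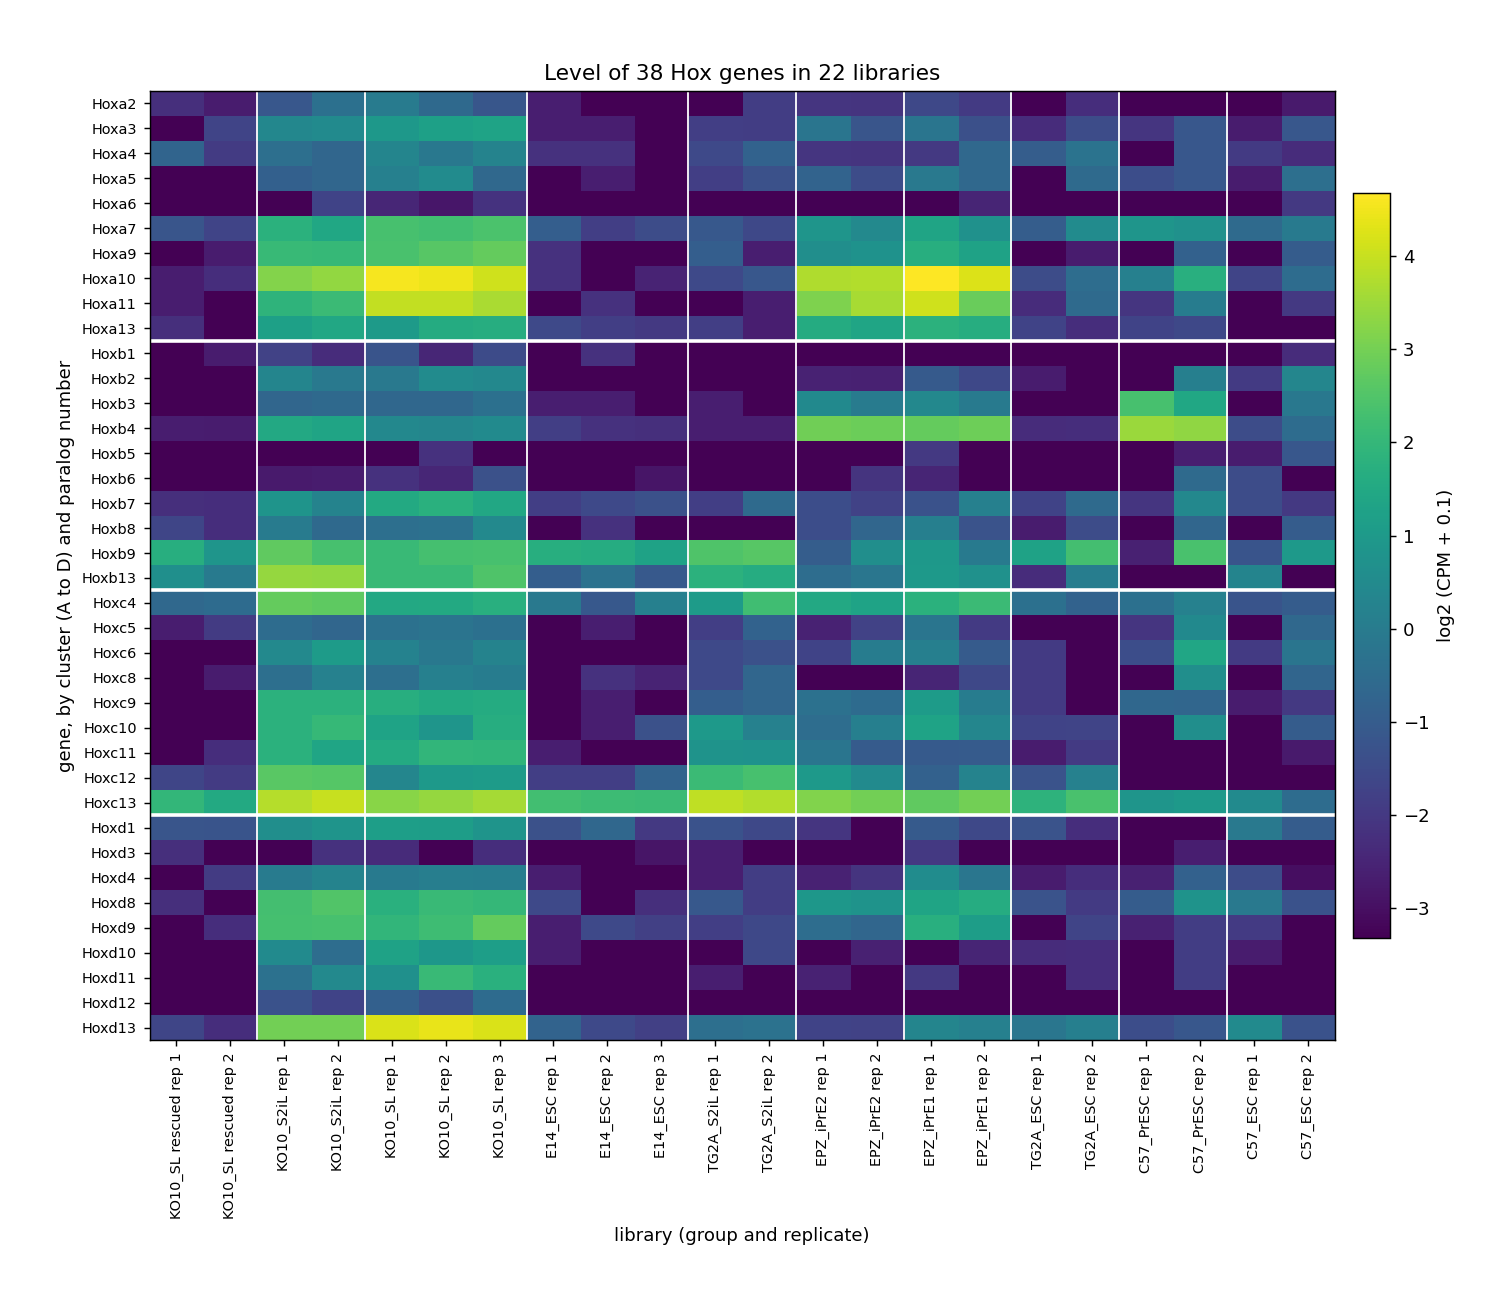
Heat map of log2 (CPM + 0.1) for the 38 Hox genes (rows, by cluster and paralog number) in the 22 libraries (columns, by group and replicate). The Ezh2-null columns are high in all 4 clusters, TG2A S2iL is high mainly in the posterior genes of cluster C, and the primitive endoderm columns are high in Hoxb4 and, in the EPZ lines, in Hoxa10 and Hoxa11.

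In E14 ESCs the few Hox genes with a measurable level were mainly of paralog groups 9 and 13. Compared per kilobase of exon, which allows levels to be set between genes, Hoxc13 led in E14 ESCs with 1.80 ± 0.0877 CPM per kb (SD, n = 3), followed by Hoxb9 with 1.09 ± 0.159 CPM per kb. All others were below 0.3 CPM per kb. Hoxc13 acts in hair and nail formation and Hoxb9 in patterning of the rib cage. Of the 38 genes, 6 had 0 counts in all E14 ESC libraries, and 2 averaged 1 CPM or more. The posterior genes made 79.6% ± 0.885 of the summed CPM per kb in E14 ESCs (SD, n = 3), 73.9% ± 1.85 in TG2A ESCs and 42.4% ± 11.4 in C57 ESCs (n = 2 each), where the central genes made 42.2% ± 8.78.

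Without Ezh2 in SL medium, Hox genes of all clusters and all positions stood higher than in E14 ESCs. Called higher were 31 of the 32 genes tested and none was called lower, where 25.8% of all genes tested were called higher and 22.7% lower. The median log2 change of the 32 genes was 4.78, or 4.47 with the genes at 0 counts in E14 ESCs set to their lowest possible fold, against 0.07 over all genes. A gene that passed the low-count filter only through the Ezh2-null libraries had to differ. Without those libraries 25 of the 32 still passed, and 24 of these were called higher. In E14 ESCs alone 3 passed (Hoxb9, Hoxc4 and Hoxc13), and 2 of them were called higher. Over all 38 genes, 35 had every Ezh2-null SL library above every E14 ESC library. The share of all genes separated in this way was not computed, so this count has no background beside it.

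Among the largest changes were those of posterior genes of clusters A and D. Hoxa10, which patterns the lumbar spine and the uterus, had 23.8, 22.1 and 17.1 CPM in Ezh2-null SL cells, against 0.120, 0 and 0.0746 CPM in E14 ESCs. All 3 knockout libraries lay far above the controls, at a log2 change of 8.17 (SE 0.55, adjusted p = 2.2e-08). Hoxa11, needed for the forearm and the kidney in the mouse, had 15.2, 15.1 and 12.5 CPM in Ezh2-null SL cells, against 0, 0.120 and 0 CPM in E14 ESCs, a log2 change of 8.46 (SE 0.85, adjusted p = 8.0e-07). With 1040 counts against 2, the ratio was 431, with an exact 95% interval of 119 to 3563 that covers counting error only. Of the counts of Hoxa11, 93% stood in libraries where its value was a fraction, that is, where reads had been shared between genes, and the antisense gene Hoxa11os overlaps its exons. The counting is not stated to use strand, so these 2 genes cannot be told apart. Hoxd13, which shapes the digits, had 18.6, 21.1 and 18.5 CPM in Ezh2-null SL cells, against 0.479, 0.239 and 0.187 CPM in E14 ESCs. Its log2 change was 6.03 (SE 0.42, adjusted p = 3.0e-08), and it shares no exon with another annotated gene.

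Some genes had no count at all in the controls, and for these only a lower bound on the fold can be given, against 3 counts over the E14 ESC group. Hoxd11, a forearm gene like Hoxa11, had 1.52, 4.22 and 3.30 CPM in Ezh2-null SL cells and was at least 60.4-fold higher. Of its counts, 96.6% came from libraries with fractional values. Hoxb2, a hindbrain gene, was at least 22.9-fold higher and Hoxc6, a gene of the thoracic region, at least 19.9-fold. Among the genes that were not tested, Hoxd12 was at least 8.84-fold higher and Hoxa6 at least 1.66-fold. Hoxb5 had counts in 1 Ezh2-null SL library only, at 0.123 CPM.

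At the other end stood the genes already present in ESCs. Hoxc13 had 9.42, 10.5 and 12.1 CPM in Ezh2-null SL cells, against 4.67, 4.36 and 4.25 CPM in E14 ESCs, a log2 change of 1.27 (SE 0.22, adjusted p = 1.7e-04). The groups did not overlap, but the change was the smallest of the 31. Hoxb9 had 4.18, 4.86 and 5.00 CPM in Ezh2-null SL cells, against 3.11, 2.99 and 2.35 CPM in E14 ESCs. It was the single tested gene that was not called, at a log2 change of 0.74 (SE 0.71, adjusted p = 0.41), although its libraries did not overlap either. In the C57 PrESC libraries, which are part of the same fit, Hoxb9 had 0.0677 and 5.06 CPM. The part of that spread in its SE was not tested. Hoxc4 and Hoxc12 changed by 1.95 and 2.48 on the log2 scale and were called.

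By cluster, the median log2 change was 5.37 in A (9 of 9 tested genes called higher), 3.54 in B (6 of 7), 4.03 in C (9 of 9) and 5.29 in D (7 of 7). By position it was 4.68 over the anterior genes, 4.26 over the central and 6.03 over the posterior, or 4.52, 4.20 and 5.92 with genes at 0 set to their bound. The make-up of the Hox RNA by cluster differed between the groups. Cluster A made 35.0% ± 3.72 of the summed CPM per kb in Ezh2-null SL cells and 6.19% ± 2.32 in E14 ESCs (SD, n = 3 each), and cluster D 28.2% ± 1.03 and 9.08% ± 2.34. Cluster C made 23.1% ± 2.14 in Ezh2-null SL cells and 51.8% ± 7.77 in E14 ESCs. The posterior genes made 77.6% ± 0.345 in Ezh2-null SL cells and 79.6% ± 0.885 in E14 ESCs. The leading genes per kilobase were Hoxd13 (7.82 ± 0.587 CPM per kb), Hoxa10 (6.42 ± 1.07), Hoxa11 (6.24 ± 0.670) and Hoxc13 (4.34 ± 0.543) in Ezh2-null SL cells.

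**Figure D2:**
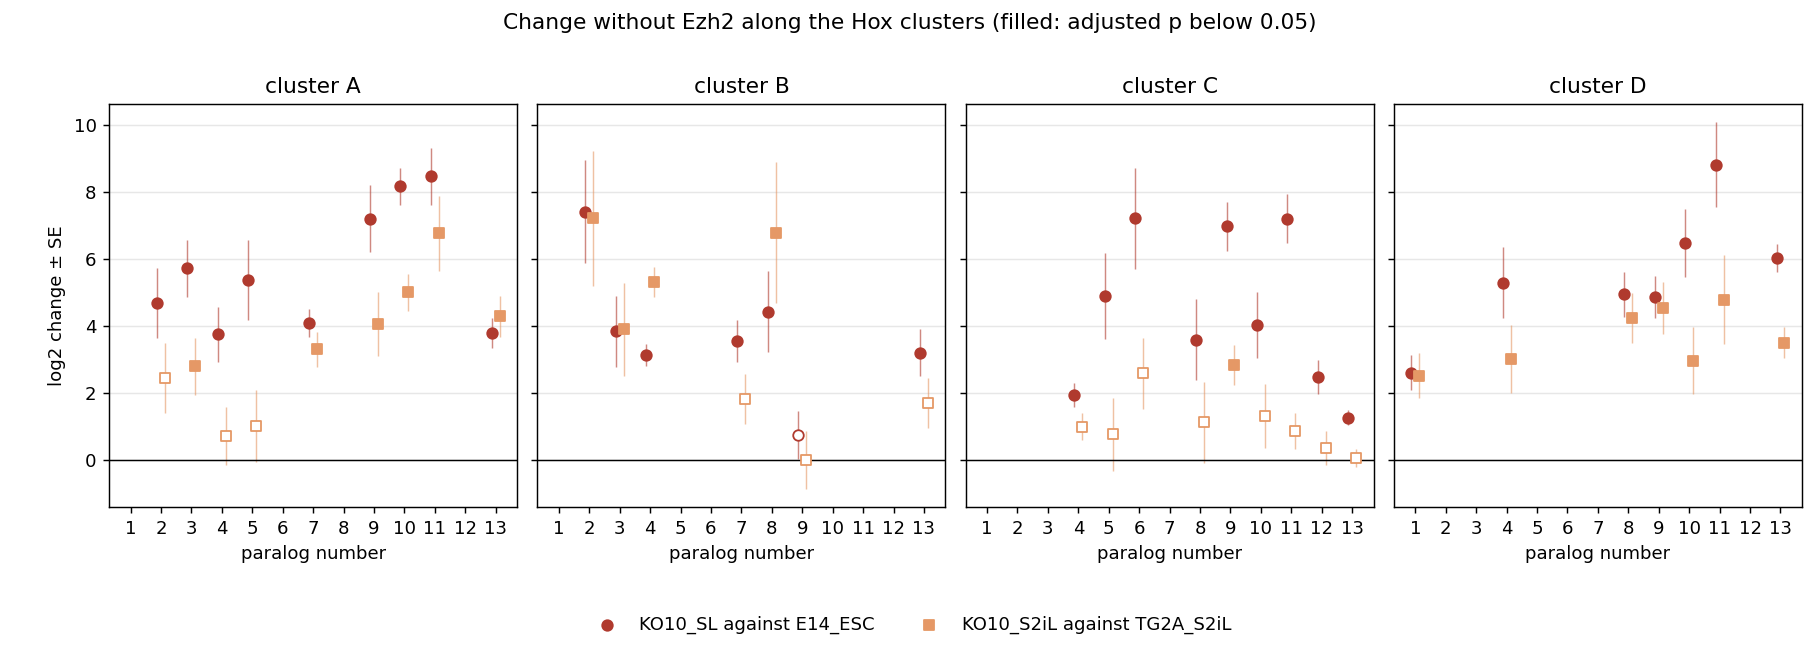
Fitted log2 change (vertical axis, ± SE) of each tested Hox gene by paralog number in the 4 clusters, for Ezh2-null SL cells against E14 ESCs (circles) and Ezh2-null S2iL cells against TG2A S2iL cells (squares), with filled symbols at an adjusted p below 0.05. Circles are filled for all genes but Hoxb9, while in cluster C the square of Hoxc9 alone is filled. For Hoxd11, Hoxb2 and Hoxc6 in SL, and Hoxb2 and Hoxb8 in S2iL, the controls had 0 counts, so the height of the symbol depends on the prior count.

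Set against TG2A ESCs, the other wild-type E14 group in LIF medium, the Ezh2-null SL libraries gave 26 genes called higher and none lower, with 13.6% of all genes called higher and 14.2% lower. This comparison shares its knockout libraries with the one above. The median log2 change was 3.50 against 0.02 over all genes. Without the Ezh2-null libraries 25 of the 32 tested genes passed the low-count filter, and 22 of these were called higher. Among all 32, the 6 genes not called were Hoxa4, Hoxa5, Hoxb8, Hoxb9, Hoxc8 and Hoxc12, with log2 changes of 0.40 to 3.36. Without TG2A ESC replicate 1 the count was 16, and the lone control library is then assumed to vary like the other groups. The 2 wild-type groups themselves differed in 4 Hox genes, all lower in E14 ESCs than in TG2A ESCs. Of all genes 11.2% were called higher and 13.1% lower, so the share of Hox genes called lower was near that of all genes. The 4 Hox genes were Hoxa4, Hoxa10, Hoxa7 and Hoxd13, with log2 changes of -2.93, -2.63, -1.62 and -1.59. The count of 4 was 7 without TG2A ESC replicate 1, 0 without its replicate 2, 2 without E14 ESC replicate 2 and 0 without E14 ESC replicate 3.

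In the rescued clone, Hox genes were low again. Of the 32 tested genes, 28 were lower in rescued than in Ezh2-null SL cells and none was higher, where 24.1% of all genes were called lower and 20.9% higher. The median log2 change was -5.06, or -4.19 with genes at 0 counts set to their bound, against -0.11 over all genes. Without the Ezh2-null libraries 25 of the 32 genes passed the low-count filter, and 23 of these were called lower. The Ezh2-null SL libraries are the same as in the comparisons with wild-type ESCs, so the results are not independent. Hoxa10 had 0.0555 and 0.107 CPM in rescued cells, against 23.8, 22.1 and 17.1 CPM in Ezh2-null SL cells, and Hoxd13 had 0.222 and 0.107 CPM, against 18.6, 21.1 and 18.5 CPM. Hoxc9, a thoracic gene, and Hoxc10, a lumbar gene, had 0 counts in both rescued libraries and were at least 36.2-fold and 29.1-fold lower. Over all 38 genes, 36 had every rescued library below every Ezh2-null SL library, and the share of all genes separated in this way was not computed.

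No Hox gene was called between rescued cells and E14 ESCs. By edgeR 0 of the 32 were called in either direction, with 1 at an unadjusted p below 0.05 (Hoxa4, log2 change 2.13, SE 0.98, adjusted p = 0.54). DESeq2 also called 0, with 1 at an unadjusted p below 0.05. Over all genes 0.0285% were called higher and 0.0798% lower. The median log2 change of the 32 genes was -0.25 and that of all genes 0. Most of these genes held too few counts in both groups to show a moderate difference, since 12 had 0 counts in both rescued libraries and 6 had 0 in the 3 E14 ESC libraries. Hoxc13, one of the few with a level, had 3.83 and 2.79 CPM in rescued cells, against 4.67, 4.36 and 4.25 CPM in E14 ESCs.

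Some other lineage genes moved with the Hox genes in the knockout. In Ezh2-null SL cells 10 of 12 primitive endoderm markers were higher and 1 lower than in E14 ESCs. Of all genes, 25.8% were called higher and 22.7% lower. Of 10 pluripotency genes 1 was higher and 1 lower, and 4 of the 8 primitive streak and mesoderm genes tested were higher. Of the 7 neuroectoderm genes tested 2 were higher, a share near that of all genes. Against TG2A ESCs, 10 primitive endoderm, 3 streak and mesoderm and 1 neuroectoderm genes were higher, where 13.6% of all genes were. In that comparison 2 pluripotency genes and 1 neuroectoderm gene were lower, where 14.2% of all genes were. The fibroblast markers summed to 88.7 to 95.4 CPM in Ezh2-null SL cells and 43.4 to 47.3 CPM in E14 ESCs. At 0 counts in every library of the group were 2 of the 15 (Dcn and Fap) in Ezh2-null SL cells and 6 in E14 ESCs, these 2 among them. Thy1 had 23.8, 24.8 and 25.4 CPM in Ezh2-null SL cells, against 9.40, 12.2 and 9.22 CPM in E14 ESCs. Of the 14 fibroblast markers tested, 1 was called higher, Twist1. The part of these genes in the Hox result was not tested.

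**Figure D3:**
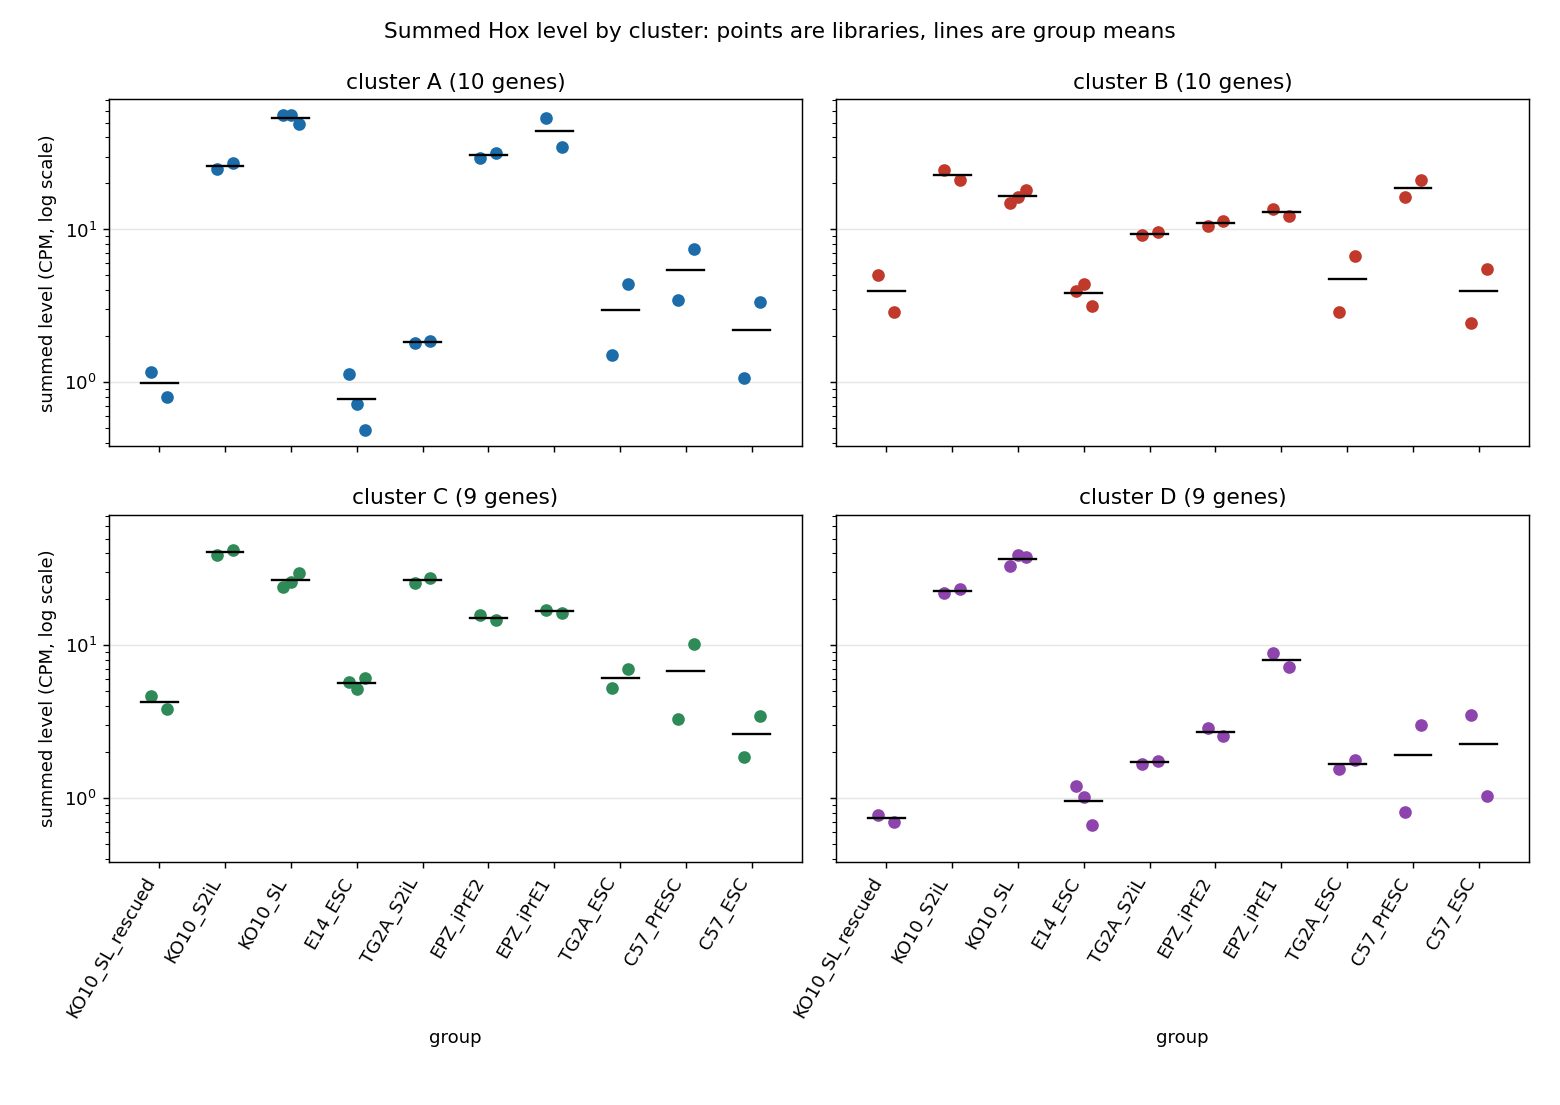
Summed CPM of the genes of each Hox cluster (log axis) in every library (points) of the 10 groups, with group means as lines. Cluster A reached 53.7 CPM on average in Ezh2-null SL cells and 0.780 CPM in E14 ESCs, while cluster C reached 26.7 CPM in TG2A S2iL cells and 6.11 CPM in TG2A ESCs.

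In 2i medium Ezh2-null cells also had higher Hox levels, with most tested genes called in 3 clusters and 1 gene in cluster C. Of the 32 tested genes, 18 were higher in Ezh2-null S2iL cells than in TG2A S2iL cells and none was lower, where 15.7% of all genes were called higher and 14.3% lower. The median log2 change was 2.82 against 0.01 over all genes. Called higher were 6 of 9 genes of cluster A, 4 of 7 of B and 7 of 7 of D, but 1 of 9 of cluster C, which was Hoxc9 at 2.85 (SE 0.60, adjusted p = 0.0025). Without the Ezh2-null libraries 25 of the 32 genes passed the low-count filter, and 14 of these were called higher. Without TG2A S2iL replicate 1 the count of 18 was 10, and without replicate 2 it was 11. Of the 12 primitive endoderm markers 6 were also higher and none lower. The fibroblast markers summed to 127 and 131 CPM in Ezh2-null S2iL cells, against 47.2 and 45.1 CPM in TG2A S2iL cells, with none of 14 tested called. Col3a1, Twist2 and Dcn were at 0 counts in the Ezh2-null S2iL libraries, while Thy1 had 31.1 and 28.5 CPM there, against 5.34 and 6.31 CPM in TG2A S2iL cells. Thy1 was not called, and in the C57 PrESC libraries of the same fit it had 0.203 and 47.3 CPM. The part of the fibroblast markers in the Hox result was not tested.

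Hoxa10, Hoxa11, Hoxb4 and Hoxd13 were among the genes called higher in 2i. Hoxa10 had 9.06 and 10.3 CPM in Ezh2-null S2iL cells, against 0.240 and 0.350 CPM in TG2A S2iL cells, a log2 change of 5.00 (SE 0.56, adjusted p = 1.8e-05). Hoxb4, a gene of the neck region that also acts in blood stem cells, had 2.77 and 2.43 CPM in Ezh2-null S2iL cells, against 0.0600 and 0.0584 CPM in TG2A S2iL cells, a log2 change of 5.30 (SE 0.45, adjusted p = 2.3e-06). That was 102 counts against 2, a ratio of 43.9 with an exact 95% counting interval of 11.9 to 368. Hoxd13 had 7.75 and 7.81 CPM in Ezh2-null S2iL cells, against 0.660 and 0.701 CPM in TG2A S2iL cells. Hoxa11 had 154 counts in Ezh2-null S2iL cells, against 1 in TG2A S2iL cells, a ratio of 132.7 with an exact 95% counting interval of 23.5 to 5273. In each of the 4 genes the libraries of the 2 groups lay far apart. Hoxb2 and Hoxb8 had 0 counts in TG2A S2iL cells and were at least 11.2-fold and 8.33-fold higher.

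In wild-type cells, 2i medium went with higher levels of several cluster C genes. TG2A S2iL cells had 6 Hox genes called higher and 1 lower than TG2A ESCs, where 11.7% of all genes were called higher and 11.6% lower. The median was 0.45 on the log2 scale, against 0 over all genes. Of the 6, 5 belonged to cluster C, namely Hoxc11 (3.85), Hoxc12 (2.77), Hoxc4 (2.51), Hoxc9 (2.50) and Hoxc13 (1.72, log2 changes), and the other was Hoxb13 (2.60). Hoxa7 was lower, at -1.56. Hoxc13 had 14.8 and 13.5 CPM in TG2A S2iL cells, against 3.54 and 5.08 CPM in TG2A ESCs. Hoxc12 had 4.32 and 5.02 CPM in TG2A S2iL cells, against 0.312 and 1.05 CPM in TG2A ESCs. Neither gene's groups overlapped. Without either TG2A S2iL library the count of 7 was 4. Cluster C made 71.7% ± 0.418 of the Hox CPM per kb in TG2A S2iL cells and 43.8% ± 6.58 in TG2A ESCs (SD, n = 2 each).

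In 2i, Hoxc13 and Hoxc11 were not called between knockout and wild type. Hoxc13 had 13.6 and 16.0 CPM in Ezh2-null S2iL cells, against 14.8 and 13.5 CPM in TG2A S2iL cells, and these overlapped, at a log2 change of 0.06 (SE 0.26, adjusted p = 0.89). Hoxc11 had 3.37 and 2.48 CPM in Ezh2-null S2iL cells, against 1.62 and 1.58 CPM in TG2A S2iL cells, and 2.88, 3.76 and 3.69 CPM in Ezh2-null SL cells, against 0.0520 and 0.157 CPM in TG2A ESCs. It was the single Hox gene whose knockout change differed between the media by the interaction test with TG2A ESCs as the SL control, at a log2 difference of -4.09 (SE 0.88, adjusted p = 0.027). Over all genes 0.838% were called higher and 1.12% lower in that test. The call ended, with an adjusted p of up to 0.145, when either Ezh2-null S2iL library, either TG2A S2iL library, Ezh2-null SL replicate 2 or 3, or TG2A ESC replicate 1 was left out. For the cluster as a whole a difference between media was not tested.

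Between the media, the knockout cells themselves had 3 Hox genes higher and 3 lower in S2iL than in SL. Of all genes 19.6% were called higher and 17.3% lower, so both shares of the 32 Hox genes were below those of all genes. Higher were Hoxc12 (1.82), Hoxc4 (1.17) and Hoxb4 (1.06), and lower were Hoxa11 (-1.86), Hoxd13 (-1.32) and Hoxa10 (-1.12, log2 changes). The median over the 32 genes was -0.22, against 0.06 over all genes. Hoxd13 had 7.75 and 7.81 CPM in Ezh2-null S2iL cells, against 18.6, 21.1 and 18.5 CPM in Ezh2-null SL cells. When only these 2 groups were fitted, 14 genes were called, 5 higher and 9 lower. The count of 6 was 1 without Ezh2-null S2iL replicate 1, 2 without its replicate 2, and 3 without Ezh2-null SL replicate 1 or replicate 2.

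In the primitive endoderm lines a smaller set of Hox genes was called higher, with Hoxb4 in all 3 lines and the posterior genes of cluster A at higher levels in the EPZ lines than in the C57 line. EPZ-iPrE2 had 12 Hox genes called higher and 1 lower than TG2A ESCs, where 28.8% of all genes were called higher and 33.4% lower. EPZ-iPrE1 had 15 higher and none lower, where 27.9% of all genes were called higher and 32.2% lower. Both comparisons use the same 2 TG2A ESC libraries. The median log2 change of the Hox genes was 1.29 in EPZ-iPrE2, against -0.11 over all genes, and 1.92 in EPZ-iPrE1, against -0.07. C57 PrESCs had 9 higher and 3 lower than C57 ESCs, where 27.3% of all genes were called higher and 33.4% lower, so that the share of Hox genes called higher was near that of all genes. The median there was 1.10, against -0.09.

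Hoxb4 was high in all 3 lines. It had 7.62 and 7.30 CPM in EPZ-iPrE2 and 6.76 and 7.41 CPM in EPZ-iPrE1, against 0.104 and 0.105 CPM in TG2A ESCs, log2 changes of 6.07 (SE 0.40, adjusted p = 1.9e-09) and 6.0 (SE 0.40, adjusted p = 2.4e-09). It had 11.1 and 10.1 CPM in C57 PrESCs, against 0.265 and 0.606 CPM in C57 ESCs, a log2 change of 4.58 (SE 0.34, adjusted p = 7.7e-09). No library of a primitive endoderm line overlapped its controls. Its neighbour Hoxb3, a hindbrain and neck gene, had 1.28 and 0.909 CPM in EPZ-iPrE2 and 1.23 and 0.858 CPM in EPZ-iPrE1, against 0 counts in TG2A ESCs, at least 13.9-fold and 13.3-fold higher. The antisense Hoxb3os overlaps its exons, and 44.9% of the counts of Hoxb3 came from libraries with fractional values. Hoxb3os had 0.849 and 0.538 CPM in EPZ-iPrE2, 0 CPM in EPZ-iPrE1 and 0 and 0.262 CPM in C57 PrESCs. In C57 PrESCs Hoxb3 had 5.01 and 2.64 CPM, against 0 and 0.822 CPM in C57 ESCs, a log2 change of 3.20 (SE 0.88, adjusted p = 0.0057).

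Hoxa9, Hoxa10, Hoxa11 and Hoxa13, the posterior genes of cluster A, were called higher in both EPZ lines. Hoxa10 had 13.2 and 13.3 CPM in EPZ-iPrE2 and 25.5 and 18.8 CPM in EPZ-iPrE1, against 0.260 and 0.629 CPM in TG2A ESCs, log2 changes of 4.88 (SE 0.53) and 5.62 (SE 0.54), adjusted p = 5.8e-07 and 1.4e-07. In C57 PrESCs it had 1.02 and 3.20 CPM, against 0.212 and 0.606 CPM in C57 ESCs, a log2 change of 2.35 (SE 0.55, adjusted p = 0.0015). The mean change of the EPZ lines exceeded the C57 change by 2.89 (SE 0.77, adjusted p = 0.0079, log2), and by 1.94, not called, without C57 ESC replicate 2. Hoxa11 had 8.75 and 12.3 CPM in EPZ-iPrE2 and 17.1 and 7.18 CPM in EPZ-iPrE1, against 0.104 and 0.577 CPM in TG2A ESCs, and 0.135 and 0.931 CPM in C57 PrESCs, against 0 and 0.151 CPM in C57 ESCs. The antisense Hoxa11os, which cannot be told apart from Hoxa11, had 6.2 CPM or more in the EPZ lines and 0 counts in C57 PrESCs. Hoxa13, a gene of the hand, foot and hindgut, was higher in all 3 lines, by 4.06 in EPZ-iPrE2, by 4.32 in EPZ-iPrE1 and at least 2.82-fold in C57 PrESCs, where 7 counts stood against 0.

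The EPZ and the C57 change differed in 4 Hox genes, or 12.5% of those tested. Of all genes, 18.8% were called higher and 16.3% lower, so the share of Hox genes was not above that of all genes. Beside Hoxa10 the Hox genes called were Hoxa9 (5.71), Hoxb13 (7.44) and Hoxd1 (6.05, log2 differences), all toward the EPZ lines. Hoxa9, a gene that also acts in blood stem cells, had 1.44 and 1.58 CPM in EPZ-iPrE2 and 3.15 and 2.34 CPM in EPZ-iPrE1, against 0 and 0.0524 CPM in TG2A ESCs. In C57 PrESCs it had 0 and 0.465 CPM, against 0 and 0.404 CPM in C57 ESCs. Hoxb13, a gene of the tail end and the prostate, and Hoxd1 had 0 counts in both C57 PrESC libraries, so the size of their differences depends on the prior count. Against C57 ESCs they were at least 5.78-fold and 6.61-fold lower. In C57 ESCs Hoxb13 had 1.11 and 0 CPM, so its bound rests on replicate 1 alone, and Hoxd1 had 0.848 and 0.404 CPM. Without C57 ESC replicate 1 the difference of Hoxb13 was 1.10 and was not called, and without C57 ESC replicate 2 that of Hoxa9 was 0.73 and was not called. Hoxa9 was also not called without TG2A ESC replicate 1 (4.87), Hoxb13 without either C57 PrESC library, and Hoxd1 without EPZ-iPrE2 replicate 1 (4.33).

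Between the EPZ lines Hoxd13 was the single Hox gene called, with 1.75% of all genes called higher and 2.17% lower. Hoxd13 had 0.206 and 0.197 CPM in EPZ-iPrE2, against 1.15 and 1.01 CPM in EPZ-iPrE1, a log2 change of -2.39 (SE 0.61, adjusted p = 0.035). No leave-one-out fit called it. It was the 1 gene lower in EPZ-iPrE2 than in TG2A ESCs (0.780 and 0.996 CPM), at -2.10 (SE 0.60, adjusted p = 0.0062). Cluster A made 46.9% ± 2.44 of the Hox CPM per kb in EPZ-iPrE2, 48.8% ± 6.92 in EPZ-iPrE1 and 17.0% ± 5.42 in TG2A ESCs. In C57 PrESCs cluster B made 58.6% ± 10.9, against 33.8% ± 6.18 in C57 ESCs (SD, n = 2 each).

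**Figure D4:**
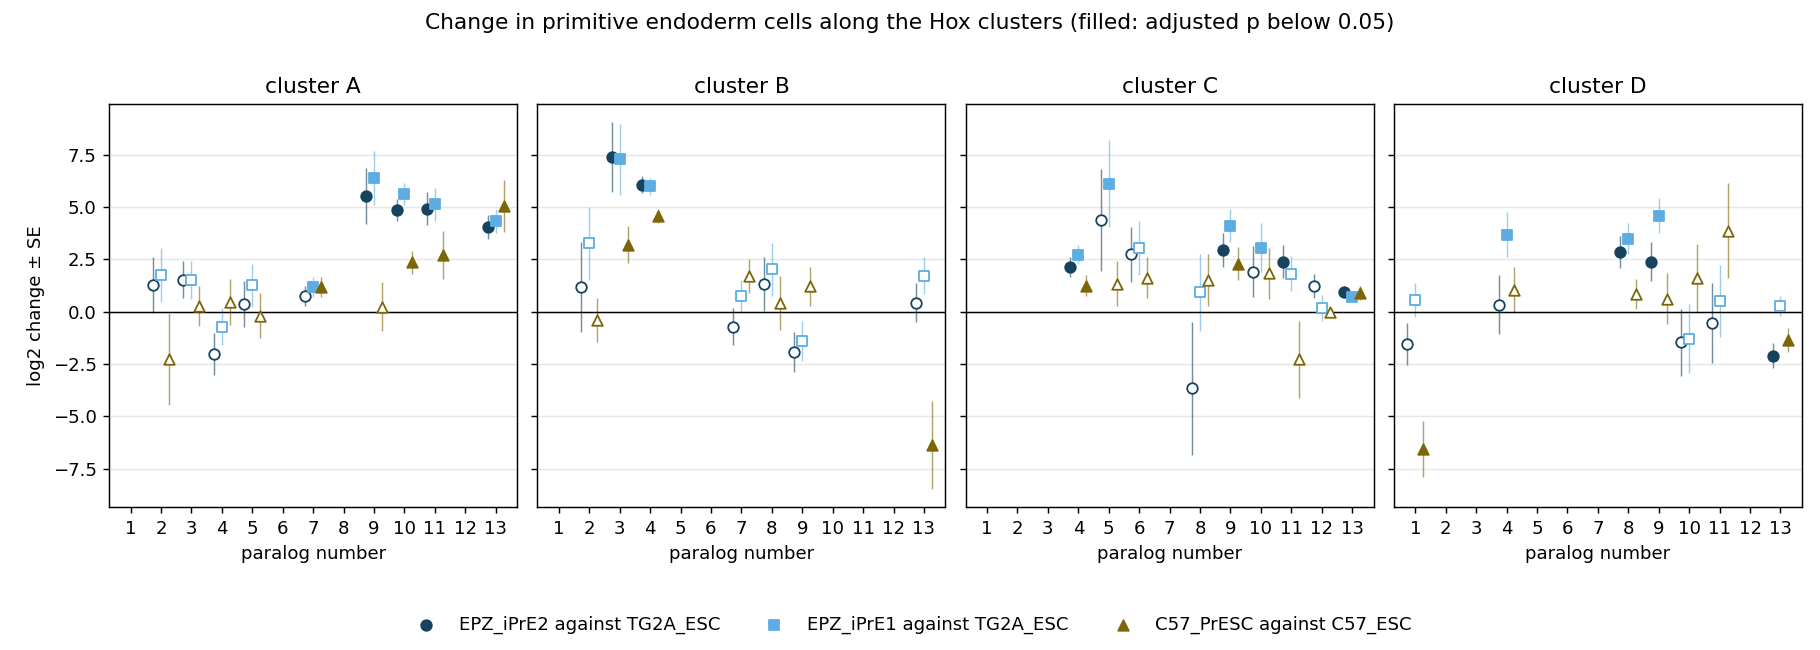
Fitted log2 change (vertical axis, ± SE) of each tested Hox gene by paralog number in the 4 clusters, for EPZ-iPrE2 (circles) and EPZ-iPrE1 (squares) against TG2A ESCs and for C57 PrESCs against C57 ESCs (triangles), with filled symbols at an adjusted p below 0.05. Hoxb3, Hoxb4, Hoxa9, Hoxa10 and Hoxa11 are among the highest filled points of both EPZ lines, as is Hoxc5 in EPZ-iPrE1, and Hoxb4 stands at 4.58 for C57 PrESCs. Where 1 group had 0 counts (among them Hoxb3 and Hoxc5 in TG2A ESCs, and Hoxd1 and Hoxb13 in C57 PrESCs) the height depends on the prior count.

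Several Hox values of the primitive endoderm comparisons moved with the libraries high in fibroblast markers. Hoxb9 had 0.0677 and 5.06 CPM in C57 PrESCs, against 0.318 and 1.92 CPM in C57 ESCs, with the higher value of each pair in replicate 2. Hoxc6 had 0.271 and 2.56 CPM, against 0.159 and 0.757 CPM, and Hoxc8 had 0 and 1.45 CPM, against 0 and 0.505 CPM. Hoxa11 was higher in the library with more fibroblast markers in each primitive endoderm line. Its values were 17.1 against 7.18 CPM in EPZ-iPrE1, 12.3 against 8.75 CPM in EPZ-iPrE2 and 0.931 against 0.135 CPM in C57 PrESCs. On the other hand, Hoxb9 had 4.77 CPM in TG2A ESC replicate 2, where the fibroblast markers summed to 30.0 CPM. Hoxb4 had 11.1 CPM in the C57 PrESC library at 31.4 CPM of fibroblast markers and 10.1 CPM in the one at 2455 CPM. The part of these markers in the results was not tested. Without the 4 libraries over 200 CPM, a choice made after seeing the data, EPZ-iPrE2 had 13 Hox genes higher and 2 lower, EPZ-iPrE1 had 13 higher and 1 lower, and C57 PrESCs had 4 higher and 3 lower. In these fits the lone library left in a group is assumed to vary like the other groups. Without C57 ESC replicate 1 the C57 comparison called 7 genes, and without C57 PrESC replicate 2 it also called 7. Hoxb4 was the single gene of that comparison called under every alternative fitted.

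**Figure D5:**
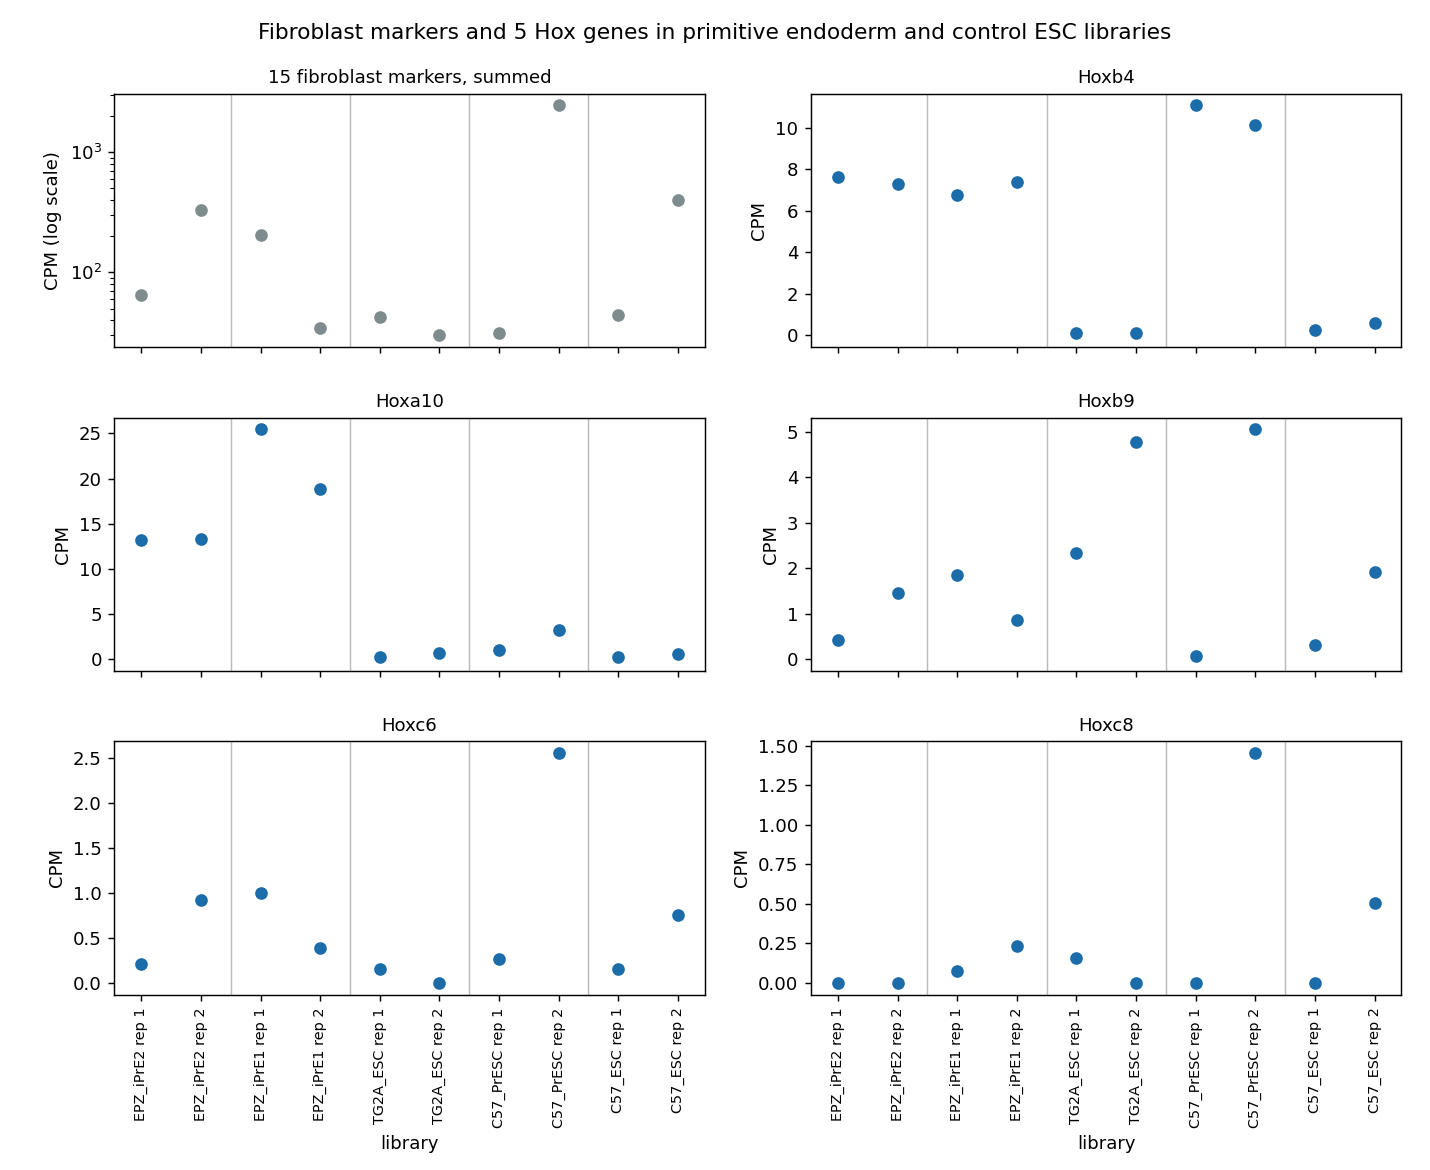
Summed CPM of 15 fibroblast markers (log axis) and CPM of Hoxb4, Hoxa10, Hoxb9, Hoxc6 and Hoxc8 in each primitive endoderm and control ESC library. The marker sum reaches 2455 CPM in C57 PrESC replicate 2, where Hoxb9, Hoxc6 and Hoxc8 are also at their highest, while Hoxb4 lies between 6.76 and 11.1 CPM in all 6 primitive endoderm libraries.

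Among the cofactors that bind DNA with Hox proteins, Meis1 and Meis2 were higher in the knockout in SL medium. In Ezh2-null SL cells 5 of 9 cofactor genes were higher and 1 lower than in E14 ESCs, where 25.8% of all genes were called higher and 22.7% lower. Meis1 stood at 4.63 (SE 0.40, adjusted p = 1.7e-07) and Meis2 at 3.56 on the log2 scale. In S2iL 3 were higher and none lower than in TG2A S2iL cells, where 15.7% of all genes were called higher, with Meis1 at 3.38. Meis2 was not among the 3, with 14.7 and 16.2 CPM in Ezh2-null S2iL cells, against 16.6 and 18.4 CPM in TG2A S2iL cells. In rescued cells 3 were lower and 1 higher than in Ezh2-null SL cells, where 24.1% of all genes were called lower and 20.9% higher. Meis1 was also higher in EPZ-iPrE2 (4.03), EPZ-iPrE1 (3.77) and C57 PrESCs (2.79, log2 changes). In all, 3 cofactors were higher and 4 lower in EPZ-iPrE2, 4 and 3 in EPZ-iPrE1, and 3 and 3 in C57 PrESCs. Of all genes, 28.8%, 27.9% and 27.3% were called higher in these lines, in that order, and 33.4%, 32.2% and 33.4% lower.

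The Cdx genes, which activate Hox genes in the tail bud, and the ParaHox genes Gsx2 and Pdx1 were measured beside them. Of the 5 tested, 4 were higher in Ezh2-null SL cells than in E14 ESCs, where 25.8% of all genes were called higher. These were Gsx2, Cdx1, Pdx1 and Cdx4, at 3.60, 2.98, 2.96 and 2.50 (log2). None was called against TG2A ESCs, where 13.6% of all genes were called higher. Cdx2 was higher than in TG2A ESCs by 2.19 in EPZ-iPrE2 and by 3.68 in EPZ-iPrE1. Cdx1 and Cdx4 were lower in EPZ-iPrE2 than in TG2A ESCs and in C57 PrESCs than in C57 ESCs.

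Genes of retinoic acid, a signal that switches on anterior Hox genes, were measured next. In Ezh2-null SL cells 11 of 18 were higher and 1 lower than in E14 ESCs, where 25.8% of all genes were called higher and 22.7% lower, with Cyp26a1, which degrades retinoic acid, at 5.06 (SE 0.35, adjusted p = 3.0e-08) and Stra6, which takes up retinol, at 2.94. Against TG2A ESCs 7 were higher and 2 lower, where 13.6% of all genes were called higher, and in S2iL 5 were higher and 1 lower, where 15.7% were. In rescued cells 11 were lower and 1 higher than in Ezh2-null SL cells, where 24.1% of all genes were called lower and 20.9% higher. In primitive endoderm lines the list was split, with 5 higher and 9 lower in EPZ-iPrE2, 4 and 9 in EPZ-iPrE1, and 6 and 7 in C57 PrESCs. Among all genes, 28.8%, 27.9% and 27.3% were called higher in these lines, in that order, and 33.4%, 32.2% and 33.4% lower. Stra6 had 61.6 and 44.8 CPM in EPZ-iPrE2 and 92.5 and 90.6 CPM in EPZ-iPrE1, against 0.624 and 0.367 CPM in TG2A ESCs, while Rarg, a retinoic acid receptor, had 2.20 and 5.72 CPM and 6.45 and 3.90 CPM, against 184.7 and 279.9 CPM.

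Polycomb and trithorax genes, which hold Hox genes off or on, changed in both directions. Of 18, 5 were higher, a share near the 25.8% of all genes, and 9 lower, beside 22.7% of all genes, in Ezh2-null SL cells than in E14 ESCs. The list includes Ezh2 itself, the gene knocked out, so its place among the lower genes was fixed by the genotype. The Polycomb repressive complex 1 genes Cbx8 and Bmi1 were higher by 3.54 and 2.22 (log2), and lower by changes of -4.27 and -2.57 in rescued than in Ezh2-null SL cells. Cbx8 had 9.71, 10.1 and 8.95 CPM in Ezh2-null SL cells, against 0.898, 0.598 and 0.933 CPM in E14 ESCs. Both genes were also called higher in the 3 primitive endoderm lines, Bmi1 by 2.32 in EPZ-iPrE2, 2.28 in EPZ-iPrE1 and 2.83 in C57 PrESCs.

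The genes beside the clusters changed in both directions. Of the 19 neighbours tested, 7 were higher and 5 lower in Ezh2-null SL cells than in E14 ESCs, where 25.8% of all genes were called higher and 22.7% lower, with a median of 0.15 on the log2 scale. Evx1, a homeobox gene at the posterior end of cluster A, had 1.99, 2.33 and 2.33 CPM in Ezh2-null SL cells, against 0.359, 0 and 0.373 CPM in E14 ESCs, a log2 change of 3.09 (SE 0.72, adjusted p = 0.0021). Skap1 near cluster B was higher by 3.09 and Calcoco2 by 2.87. In the EPZ lines 3 neighbours were higher and 11 lower in each. Over all genes 28.8% were called higher and 33.4% lower in EPZ-iPrE2, and 27.9% and 32.2% in EPZ-iPrE1. Of 17 noncoding genes of the clusters in the table, 3 passed the filter. Hoxa11os had 11.8, 14.7 and 11.6 CPM in Ezh2-null SL cells and 1 count in E14 ESCs, a ratio of 766 with an exact 95% counting interval of 137 to 30306. Since it overlaps the exons of Hoxa11 and use of strand is not stated, it cannot be told apart from Hoxa11. Haglr of cluster D was higher by 3.84 on the log2 scale. Halr1 beside cluster A had 0 counts in the EPZ libraries, against 5.36 and 14.6 CPM in TG2A ESCs, and was called lower in both lines.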

How the data were processed

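Mouse RNA was sequenced in 22 libraries of 10 groups. The authors deposited a single table with an expected count for each symbol, not normalized, in which 5.71 to 7.26% of symbols in a library were fractional and held 27 to 37.2% of its counts, so reads had been shared between genes. Per the submitters' processing notes, Trim Galore, STAR 2.7.6a, DESeq2 and the mm10 build were used. No source used here gives the counting tool, its annotation or its use of strand. Per the labels, RNA was polyA RNA, while the extraction protocol names an rRNA depletion kit, so the selection of RNA is uncertain. The design had assumed raw counts.

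From there the expected counts were rounded and fitted with edgeR 4.0.16 (quasi-likelihood test, R 4.3.3, limma 3.58.1), all 22 libraries together with 1 coefficient per group and 12 residual degrees of freedom. Libraries were scaled by TMM. Genes needed 0.566 CPM in 2 libraries and 15 counts in total, which left 17547 genes, and p-values were adjusted within each comparison by Benjamini and Hochberg, with calls below 0.05. Coordinates and exon lengths came from GENCODE M21, where 53186 symbols were found once. Lower bounds on folds use 3 counts over the group at 0. Named were the tested Hox genes with the largest and smallest changes, the genes of each pattern described, and up to 4 genes of each other list by size of change among those called, some of which are not reported here. The members and lists were chosen with earlier results of these data known. The fit was tested on simulated data.

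Alternatives were RLE scaling, no filter on low counts, the replicate number as a block, only the compared groups, each library left out, and DESeq2 1.42.0. A crossed block and a fit without the 4 libraries over 200 CPM of fibroblast markers were added after seeing the data. Replicate correlation of log2 CPM was 0.952 to 0.991. Depth was 13586043 to 26280949 counts per library, and intervals and floors cover counting error only.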

Additional observations from a re-analysis of the deposited data

Results flagged for a closer look

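These values came from tests of a difference between 2 changes or 2 lines, and no explanation of them was tested. Hoxc11 changed less without Ezh2 in S2iL than in SL medium, by a log2 difference of -4.09 (edgeR, adjusted p = 0.027). The mean change of the EPZ lines was above that of the C57 line at Hoxa9 (5.71), Hoxa10 (2.89), Hoxb13 (7.44) and Hoxd1 (6.05, log2 differences). Hoxb13 and Hoxd1 had 0 counts in C57 PrESCs, and Hoxb13 also had 0 in C57 ESC replicate 2. Hoxd13 was lower in EPZ-iPrE2 than in EPZ-iPrE1, by a log2 change of -2.39 (adjusted p = 0.035), on 2 libraries a line.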

How the results depend on the processing

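Of 166 calls of single Hox genes over the 14 comparisons, 102 were called under every alternative fitted, where a gene that an alternative did not test counts as not called (18 calls) and an adjusted p that DESeq2 left out does not count. These included 29 of the 31 calls between Ezh2-null SL cells and E14 ESCs and 23 of the 28 between rescued and Ezh2-null SL cells. They also included 9 of 13 in EPZ-iPrE2, 10 of 15 in EPZ-iPrE1 and 1 of 12 in C57 PrESCs, and 0 for the interaction, between the EPZ lines, for the EPZ less the C57 change and between the wild-type groups. Under RLE scaling 164 of 166 calls held, without the filter 157, with DESeq2 157 of 164, and with a library left out 658 of 819, 2 of which turned. These were the log2 changes of Hoxb13 and Hoxd13 in C57 PrESCs against C57 ESCs, which ranged from -7.37 to 0.00 and from -2.05 to 0.069, the lower values without C57 ESC replicate 2 and the upper without replicate 1.

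Replicate numbers did not pair the samples, since same-numbered libraries of the compared groups correlated by 0.1 or less except in the C57 pair (0.29). With the replicate number as a block 149 of 166 calls held, and the counts were 4 for 2i in TG2A cells, 0 for the interaction, 0 between the EPZ lines and 8 of 12 for C57 PrESCs, where the calls of Hoxa7, Hoxa11, Hoxc4 and Hoxd13 ended. Between the EPZ lines same-numbered libraries correlated by -0.36, and a block with crossed numbers called 3140 genes, 4 of them Hox genes, against 0 genes for the numbers as given.

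Counts of called Hox genes moved by over 1.5 times with only the compared groups fitted, to 14 for the knockout between media, 3 for the interaction, 0 between the EPZ lines, 1 for the C57 line, 0 for EPZ less C57 and 0 between the wild-type groups. Between the EPZ lines there were 3 without the filter, 2 with DESeq2 and 0 without the libraries high in fibroblast markers, which gave 7 for the C57 line. The summed Hox level of EPZ-iPrE2 was 57.7 CPM under RLE and 54.9 CPM without scaling, and that of Ezh2-null S2iL cells 115.8 and 126.5 CPM. The cause of these shifts was not tested.

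With 1 library left out, the counts ranged from 30 to 31 for the knockout against E14 ESCs, 16 to 25 against TG2A ESCs, 23 to 26 for rescued against knockout cells, 0 to 0 for rescued cells against E14 ESCs, 10 to 12 for the knockout in S2iL and 1 to 6 for the knockout between media. They were 4 to 6 for 2i in TG2A cells, 0 to 1 for the interaction, 10 to 16 for EPZ-iPrE2, 10 to 15 for EPZ-iPrE1, 0 to 0 between them, 7 to 12 for C57 PrESCs, 3 to 6 for EPZ less C57 and 0 to 7 between the wild-type groups. The summed level ranged from 8.25 to 11.6 CPM in rescued cells, 110.7 to 113.3 in Ezh2-null S2iL, 131.5 to 136.2 in Ezh2-null SL and 10.9 to 11.7 in E14 ESCs. It ranged from 38.4 to 40.9 CPM in TG2A S2iL, 58.7 to 60.3 in EPZ-iPrE2, 70.4 to 93.2 in EPZ-iPrE1, 11.2 to 19.8 in TG2A ESCs, 23.9 to 41.8 in C57 PrESCs and 8.85 to 13.3 in C57 ESCs. Most Hox genes held few counts in wild-type ESCs, so a moderate change there was not detectable at this depth.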
